A study of Mus musculus with 6 samples.

Results

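The 6 type IV collagen genes of the mouse, Col4a1 to Col4a6, were followed in RNA from yolk sacs at embryonic day 9.5. They were taken by symbol from a table of read counts for 25239 genes, in which all 6 had a row, and 4 of them were among the 14002 genes that passed a filter on low counts. The family was chosen by the Col4a6 counts of these same libraries, whose difference between the groups an earlier fit had called, so the differences of the members between the groups are given as a description, without a test. Messenger RNA libraries numbered 6, with 3 in each of 2 groups. The WT libraries came from wild-type embryos of the CD1 strain without treatment. The DKO-labelled libraries came from embryos of mixed background that were null for Cdx1, carried loxP-flanked Cdx2 alleles (Cdx2fl/fl) and an Actin::CreERT transgene, and received tamoxifen at embryonic day 5.5. CreERT is a recombinase that enters the nucleus when tamoxifen is present, here under an actin promoter. Strain, genotype, transgene and tamoxifen thus differ together and cannot be told apart. Whether a library held 1 yolk sac or a pool, and whether libraries came from separate litters, is not given in the sources used here, and the p-values cover the spread among these libraries only, which may be technical.

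Type IV collagen is the network-forming collagen of basement membranes, the thin sheets on which epithelia and endothelia rest. Its chains wind into triple helices called protomers, which join end to end through their globular NC1 domains. The chains of Col4a1 and Col4a2 form the protomer found in nearly all basement membranes, and those of Col4a3, Col4a4 and Col4a5 form the one known from the kidney glomerulus. The chain of Col4a6 joins that of Col4a5 in a further protomer known from smooth muscle and some epithelia. In the visceral yolk sac such membranes underlie the endoderm and surround the vessels. The genes lie head to head in pairs, the members of a pair read in opposite directions from neighbouring start sites.

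In GRCm38, with the GENCODE M21 annotation, Col4a1 spans chr8:11198423-11312826 on the minus strand and Col4a2 chr8:11312805-11449287 on the plus strand. Col4a4 spans chr1:82448423-82586849 on the minus strand and Col4a3 chr1:82586921-82722059 on the plus strand. Col4a6 spans chrX:141165403-141474076 on the minus strand and Col4a5 chrX:141475385-141689234 on the plus strand. The longest coding lengths differ little, from 5007 bases (Col4a1 and Col4a3) to 5121 bases (Col4a2), and 1 coding transcript each is annotated for Col4a2, Col4a4 and Col4a6.

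The start regions of Col4a6, whose level differs between the groups, of its partner Col4a5, and of Col4a1 for comparison are shown because they hold the start sites of the genes. The RefSeq windows (GRCm38.p6) run from 250 bases before the start site to 50 after it, 5′ to 3′ on the strand of the gene. Capitals mark matches on either strand to 4 short motifs. The GC-rich Sp1-type box is written GGGCGG, and the box read by the factor NF-Y is written CCAAT. The caudal motif, letters read by caudal homeobox factors such as CDX2, was searched in its form TTTATG, here called the first form, and also in the form that ends differently, TTTATA, here called the second form.
Col4a6, chrX:141474027-141474326, minus strand: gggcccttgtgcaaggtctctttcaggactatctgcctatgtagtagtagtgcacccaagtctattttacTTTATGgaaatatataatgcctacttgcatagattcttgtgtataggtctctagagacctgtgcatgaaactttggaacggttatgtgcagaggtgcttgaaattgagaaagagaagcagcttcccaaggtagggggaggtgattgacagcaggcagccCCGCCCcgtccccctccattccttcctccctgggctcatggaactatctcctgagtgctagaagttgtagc
Col4a5, chrX:141475169-141475468, plus strand: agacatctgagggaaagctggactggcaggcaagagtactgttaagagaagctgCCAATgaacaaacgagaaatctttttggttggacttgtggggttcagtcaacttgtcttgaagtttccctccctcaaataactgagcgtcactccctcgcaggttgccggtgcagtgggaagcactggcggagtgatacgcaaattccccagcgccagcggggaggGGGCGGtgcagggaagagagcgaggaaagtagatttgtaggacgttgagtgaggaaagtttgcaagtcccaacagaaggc
Col4a1, chr8:11312777-11313076, minus strand: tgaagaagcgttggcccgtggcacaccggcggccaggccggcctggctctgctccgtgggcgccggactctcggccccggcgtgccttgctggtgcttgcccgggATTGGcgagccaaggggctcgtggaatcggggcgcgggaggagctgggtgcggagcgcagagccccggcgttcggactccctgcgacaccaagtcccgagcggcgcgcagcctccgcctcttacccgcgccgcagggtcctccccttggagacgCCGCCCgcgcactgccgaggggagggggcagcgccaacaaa

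The Col4a1 and Col4a2 start sites in these windows lie 21 bases apart and their windows overlap by 78 bases, and in GENCODE M21 the 5′ ends of the genes overlap by 22 bases. The start sites of Col4a5 and Col4a6 lie 1343 bases apart, with no overlap of the windows. Windows were matched for 5 members, all but Col4a3. The GC content was 74% in the Col4a1 window, 73.7% in that of Col4a2, 63.3% in that of Col4a4, 52.7% in that of Col4a5 and 48.3% in that of Col4a6, where the median of all 32851 windows was 52.7%. The Col4a6 window held 3 CpG dinucleotides and the Col4a1 window 37, where the median window held 7. The Col4a6 window held 1 caudal motif of the first form, which starts 180 bases before the start site and is found in 11.9% of all windows. None of the other 4 windows held it, and the second form (13.6% of all windows) was in none of the 5. Either form is found in 22.8% of all windows. The Sp1-type box was found in the windows of Col4a1, Col4a2, Col4a5 and Col4a6 (35.7% of all windows) and the NF-Y box in those of Col4a1, Col4a2 and Col4a5 (37.4%). Within a window no match overlapped another, but the Sp1-type box of the Col4a1 window is also in the Col4a2 window, on the same bases. A match is a description of letters and not evidence of binding.

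Library totals ran from 20040601 to 26855337 counts in WT and from 24242663 to 56732836 in the other group, and levels are given as CPM, the read count scaled to a common library size after TMM adjustment. The 3 DKO-labelled libraries differed more from each other (Pearson correlations of log2 CPM across genes 0.925 to 0.969) than the WT libraries did (0.989 to 0.990). The targeted gene Cdx2 stood at 16.6, 18.9 and 20.4 CPM across WT against 23.0, 24.1 and 25.7 CPM in the DKO-labelled libraries (log2 fold change 0.38, SE 0.12, edgeR adjusted p 0.449). Cdx1 had 0, 1 and 8 counts against 10, 14 and 14. Scaled for depth these are 0, 0.0486 and 0.397 CPM against 0.406, 0.36 and 0.253 CPM, and the groups overlap. For Cdx4 the WT counts were 0, 1 and 1, with no read in a DKO-labelled library. Neither Cdx1 nor Cdx2 was lower where the labels place their loss, so every direction given here rests on the labels. Esr1, given with the decidual markers, was higher in all 3 DKO-labelled libraries than in any WT library. Counts over whole genes do not show which exons were read.

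Markers of yolk sac endoderm, blood and vessels were present in both groups, and the DKO-labelled libraries differed from each other. All 10 visceral endoderm markers were detected, led by Afp and Apob, with a summed level of 31000 to 36600 CPM across WT against 20600 to 56900 CPM in the DKO-labelled libraries. Much of that range was Afp alone, at 6790 to 9860 CPM across WT against 2220, 11500 and 31200 CPM in DKO-labelled libraries 1, 2 and 3. All 7 endothelial markers were detected, led by Cdh5 and Kdr, with sums of 409 to 501 and 324 to 537 CPM. Mesothelial and mesodermal markers, led by Ahnak and Vim, summed to 1090 to 1390 and 1120 to 1530 CPM, and the mesothelial gene Msln had no count in any library. Smooth muscle markers, led by Acta2 and Tagln, summed to 187 to 240 and 168 to 224 CPM. Parietal endoderm markers, which belong to the neighbouring Reichert's membrane, were led by Sparc and Lama1 and summed to 967 to 1090 and 833 to 1450 CPM, but Gkn2 was at 0 in 5 of the 6 libraries. Primitive erythroid markers, led by Hbb-bh1 and Hba-x, summed to 8660 to 13500 CPM in WT and to 7880, 10200 and 2760 CPM in DKO-labelled libraries 1, 2 and 3. Trophoblast markers, led by Prl2c2 and Rhox6, summed to 16.6 to 46.6 CPM in WT and to 85.0, 45.3 and 379 CPM, and decidual markers, led by Bmp2 and Prl8a2, to 15.8 to 17.8 CPM and to 26.6, 16.2 and 56.8 CPM. DKO-labelled library 3 had the lowest erythroid and the highest trophoblast and decidual sums. Its decidual sum came mostly from Prl8a2 (33.7 CPM) and Des (16.5 CPM). Bmp2 went the other way and was lowest in that library, at 3.82 CPM against 13.4 to 14.6 CPM in WT. DKO-labelled library 1 had the lowest visceral and parietal endoderm sums of all libraries, 20600 and 833 CPM. DESeq2 called 2 of 5 tested trophoblast markers (Rhox6 and Rhox9) and 1 of 4 tested decidual markers (Esr1) higher, where it called 1.16% of all genes higher. EdgeR called 0 of either, and at an unadjusted p under 0.05 it counted 2 of 5 and 3 of 4 higher, against 5.55% of all genes. Esr1, the estrogen receptor gene, stood at 0.0743, 0.194 and 0.149 CPM across WT against 2.6, 1.98 and 2.03 CPM in the DKO-labelled libraries, without overlap and without the peak in library 3 that Prl8a2 and Des showed. CreERT carries part of an estrogen receptor, and whether reads of the transgene were counted as Esr1 was not tested. In the other marker lists, Dab2 (log2 fold change -0.52), Wt1 (-1.17) and Slc4a1 (-0.92) lay lower in the DKO-labelled libraries without overlap, as did Lama1, described below. Pecam1 (0.52) lay higher without overlap. Such separation was found in 7.61% of all genes for lower and 7.94% for higher. Neither edgeR nor DESeq2 called Dab2, Wt1, Slc4a1 or Pecam1. Rhox9, Esr1, Des, Dab2, Wt1, Slc4a1 and Pecam1 were named after their values were seen. The part of these cell types in the results was not tested. In bulk RNA, fewer cells of a type and less RNA per cell cannot be told apart.

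Col4a1 and Col4a2, the chains of the widespread protomer, carried nearly all type IV collagen reads. Col4a1 held 64.0% to 65.2% and Col4a2 32.8% to 34.1% of the reads of the family in the 6 libraries. Per kilobase of coding length the WT levels were 295 ± 10.3 and 147 ± 6.12 CPM (SD, n = 3). The family as a whole took 0.231%, 0.237% and 0.221% of all counts across WT against 0.219%, 0.258% and 0.294% in DKO-labelled libraries 1, 2 and 3. DKO-labelled library 1 was the lowest of the 6 and library 3 the highest.

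Col4a1 stood at 1480, 1530 and 1430 CPM across WT against 1390, 1660 and 1970 CPM in DKO-labelled libraries 1, 2 and 3. The groups overlapped, because DKO-labelled library 1 lay below every WT library and the other 2 lay above. Its log2 fold change, DKO-labelled libraries minus WT, was 0.18 (SE 0.15, edgeR fit). Col4a2 stood at 765, 780 and 720 CPM across WT against 733, 882 and 1010 CPM in the DKO-labelled libraries, with library 1 inside the WT range and the other 2 above it. Its log2 fold change was 0.21 (SE 0.14). Without DKO-labelled library 3 these values were 0.04 for Col4a1 and 0.09 for Col4a2, and without library 1 they were 0.29 and 0.32. Coefficients of variation were 3.5% and 4.15% for Col4a1 and Col4a2 in WT and 17.4% and 15.8% in the DKO-labelled libraries, where counting error alone would give at most 0.774%.

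The ratio of Col4a1 to Col4a2 counts was 1.93, 1.96 and 1.98 in WT and 1.89, 1.88 and 1.95 in the DKO-labelled libraries. Over the 6 libraries it ran from 1.88 to 1.98, while the highest level was 1.42 times the lowest for Col4a1 and 1.38 times for Col4a2 among the DKO-labelled libraries. Per base of coding length the ratio was 2 ± 0.02 in WT and 1.95 ± 0.0361 in the DKO-labelled libraries (SD, n = 3 each). With the union of all annotated exons as the length it was 1.74 ± 0.0252 and 1.69 ± 0.0321. As background, the protomer holds 2 chains of Col4a1 and 1 of Col4a2.

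**Figure D1:**
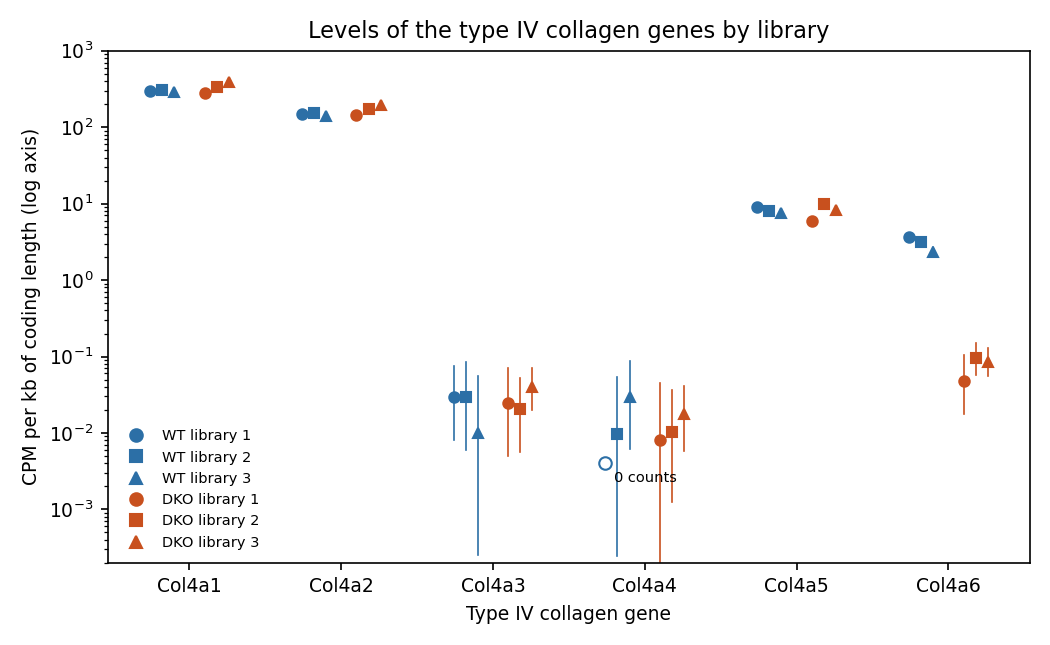
Level of each type IV collagen gene in every library, in CPM per kilobase of coding length on a log axis, with exact 95% Poisson intervals of the counts as lines and an open symbol at an arbitrary height where a library had 0 counts. Col4a6 is the member whose groups lie far apart, at 2.36 to 3.70 in WT and 0.0480 to 0.0964 in the DKO-labelled libraries.

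Col4a3 and Col4a4, the chains known from the glomerular protomer, were at the limit of detection in both groups. Col4a3 had 4, 3 and 1 counts across WT against 3, 4 and 11 in the DKO-labelled libraries, that is 0.149, 0.146 and 0.0497 against 0.122, 0.103 and 0.199 CPM. Col4a4 had 0, 1 and 3 counts across WT against 1, 2 and 5 in the DKO-labelled libraries, where 3 counts correspond to 0.0543 to 0.149 CPM. Summed over a group, Col4a3 had 8 counts in WT (exact 95% Poisson interval 3.45 to 15.8) and 18 in the DKO-labelled libraries (10.7 to 28.4). Col4a4 had 4 (1.09 to 10.2) and 8 (3.45 to 15.8). These intervals cover counting error only. Neither gene passed the filter on low counts, and no difference was detectable at this depth.

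Col4a5, whose chain takes part in both rarer protomers, lay far below Col4a1 and Col4a2 and above Col4a3 and Col4a4. In WT its level was 8.2 ± 0.704 CPM per kilobase of coding length, where Col4a1 had 295 ± 10.3 (SD, n = 3). It stood at 45.5, 40.8 and 38.5 CPM across WT against 30.1, 49.8 and 41.7 CPM in DKO-labelled libraries 1, 2 and 3. The groups overlapped fully, with the lowest and the highest value both among the DKO-labelled libraries. The log2 fold change was -0.04 (SE 0.19), and it turned to 0.03 without WT library 1 and to 0.13 without DKO-labelled library 1. Reads of Col4a1 outnumbered those of Col4a5 by 32.5 to 37.5 times in WT and by 46.1, 33.3 and 47.2 times in DKO-labelled libraries 1, 2 and 3.

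Col4a6, the partner of Col4a5, stood at 18.8, 16.1 and 12.0 CPM in WT libraries 1, 2 and 3, from 505, 332 and 241 counts. In DKO-labelled libraries 1, 2 and 3 it stood at 0.243, 0.489 and 0.434 CPM, from 6, 19 and 24 counts. All 3 DKO-labelled libraries lay below all 3 WT libraries, and the lowest WT level was 24.5 times the highest level in the other group. The means differed 40.2-fold and the log2 fold change was -5.27 (SE 0.33), the most negative of the 14002 genes tested. Some reads were left: the DKO-labelled libraries held 49 in all (Poisson interval 36.3 to 64.8), and per kilobase of coding length each of them was above the Col4a3 level of all 3. Their Poisson intervals (0.0893 to 0.53, 0.294 to 0.764 and 0.278 to 0.646 CPM) all overlap that of Col4a3 in library 3, 0.0994 to 0.356 CPM. That order is therefore not shown to exceed counting error. The edgeR test called 5 genes, or 0.0357% of those tested, 2 of them higher (0.0143%) and 3 lower (0.0214%). Col4a6 was 1 of these, and since this call chose the family nothing is read from it. The log2 fold change ran from -5.45 to -5.08 over the 6 fits that each left out 1 library. Leaving out DKO-labelled library 3, which stands apart in its erythroid and trophoblast markers, gave -5.33.

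Within WT, Col4a6 varied more than its partner. Its coefficient of variation was 21.9% and that of Col4a5 8.59%, where counting error would give 5.52% and 3.32%. Col4a6 made up 29.2% of the reads of the pair in WT library 1 (Wilson 95% interval 27.1 to 31.4), 28.3% in library 2 (25.8 to 31.0) and 23.7% in library 3 (21.2 to 26.4). The intervals of WT libraries 1 and 3 do not overlap, so the share differed between these libraries by more than counting error. In DKO-labelled libraries 1, 2 and 3 it made up 0.802% (0.368 to 1.74), 0.973% (0.624 to 1.51) and 1.03% (0.694 to 1.53). These intervals overlap one another, so no difference in share was detectable among them.

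The ratio of Col4a5 to Col4a6 counts was 2.43, 2.53 and 3.22 in WT and 124, 102 and 95.9 in the DKO-labelled libraries. On the log2 scale the mean ratio went from 1.43 ± 0.22 to 6.73 ± 0.192 (SD, n = 3 each), a difference of 5.30. For Col4a1 and Col4a2 it went from 0.969 ± 0.0171 to 0.931 ± 0.0279, a difference of -0.0378. A ratio within a library does not depend on library scaling. Levels per kilobase of coding length kept 1 order in both group means, Col4a1, Col4a2, Col4a5, Col4a6, Col4a3 and Col4a4. In WT every neighbouring pair in that order was separated in all libraries down to Col4a3, and Col4a3 and Col4a4 overlapped in range in both groups.

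**Figure D2:**
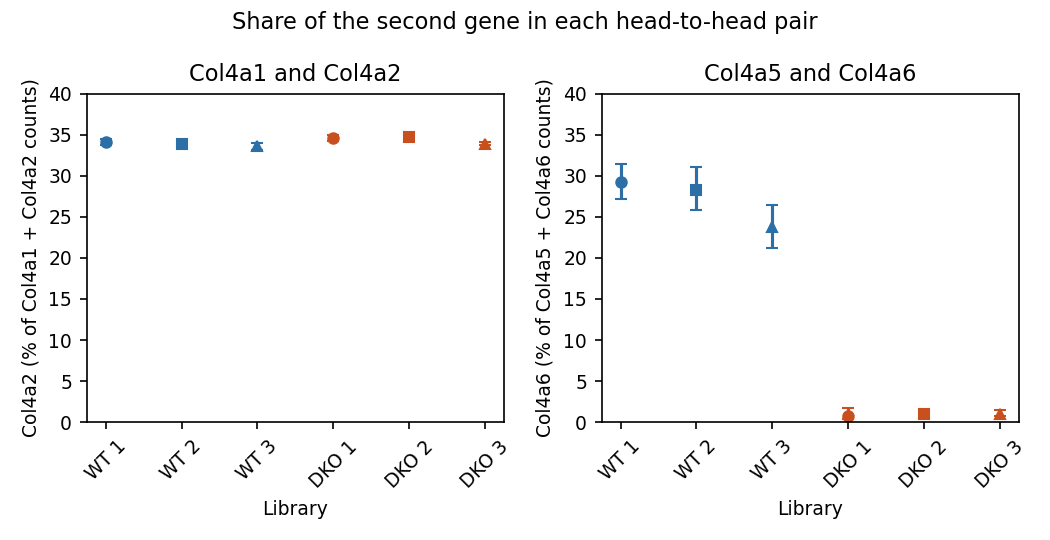
Share of the second gene of each head-to-head pair in the reads of the pair, in percent, for every library with its Wilson 95% interval. Col4a2 stays between 33.6% and 34.7% in all 6 libraries, while Col4a6 stands at 23.7% to 29.2% in WT and 0.802% to 1.03% in the DKO-labelled libraries.

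Of 23 tested genes that start within 1 Mb of a Col4a gene, none passed edgeR (0 higher and 0 lower, against 0.0357% of all genes) and none passed DESeq2. At an unadjusted p under 0.05, 2 of 23 were lower and 0 higher, against 9.09% of all genes in either direction. Around Col4a5 and Col4a6 the log2 fold changes of 8 tested genes ran from -0.42 to 0.25. The nearest on one side was Atg4a, a protease of autophagy, 1.2 kb from the end of Col4a6, at 9.13 ± 0.678 CPM across WT against 9.08 ± 1.26 CPM in the DKO-labelled libraries. The nearest tested gene on the other side was Nxt2, a cofactor of RNA export, 538 kb away, at -0.42 on the log2 scale (SE 0.17, edgeR adjusted p 0.543). The 2 genes under the unadjusted threshold were Nxt2 and Acsl4, an acyl-CoA synthetase, at -0.37 (SE 0.14, adjusted p 0.526). For Nxt2 and Acsl4 all DKO-labelled libraries lay below all WT libraries, as in 7.61% of all genes. Acsl4 was named after its values were seen.

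Beside Col4a1 and Col4a2 lay Irs2 and Rab20, with log2 fold changes of -0.05 (SE 0.09) and 0.11 (SE 0.13). Beside Col4a3 and Col4a4 lay Rhbdd1 and Mff, at 0.16 (SE 0.14) and 0.00 (SE 0.08). Genes for insulin receptor substrates lie near all 3 pairs, and none of them was called. Irs2 stood at 85.1 to 97.2 CPM and Irs1, near Col4a3 and Col4a4, at 9.56 to 17.4 CPM. Irs4, near Col4a5 and Col4a6, had 2 to 21 counts per library and did not pass the filter.

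**Figure D3:**
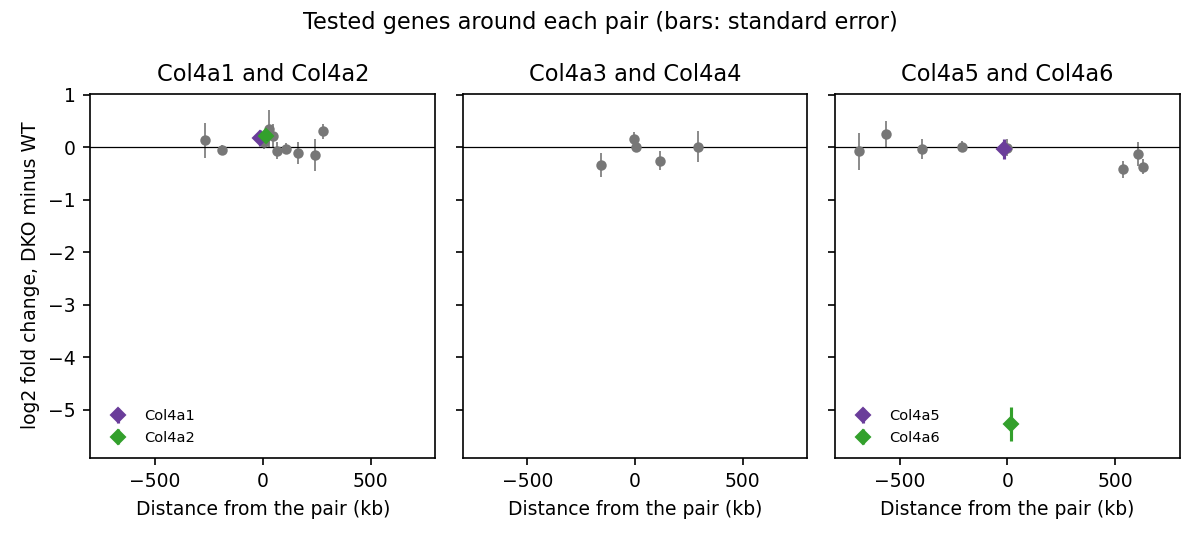
Log2 fold change, DKO-labelled libraries minus WT, with its standard error, of the tested genes around each pair against their distance from the pair in kilobases, members as diamonds set slightly apart at 0. Col4a6 stands at -5.27, and the 23 neighbours lie between -0.42 and 0.35.

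Of 17 genes for enzymes and chaperones that modify and fold collagen chains, 16 were tested, with 12 positive log2 fold changes, a median of 0.21 against 0.01 for all genes tested, and 0 called by edgeR or by DESeq2 (0.0357% and 1.92% of all genes). None had an unadjusted p under 0.05. P4hb, a subunit of prolyl 4-hydroxylase and a disulfide isomerase, stood at 1260 ± 32.7 CPM across WT against 1470 ± 305 CPM in the DKO-labelled libraries. The collagen chaperone Serpinh1 stood at 1210 ± 67.5 and 1200 ± 285 CPM, and the collagen galactosyltransferase Colgalt1 at 132 ± 15.2 and 195 ± 59.6 CPM (SD, n = 3 each). Without DKO-labelled library 1, edgeR called 4 of these genes, all higher, when it called 4.42% of all genes. These were Colgalt1 at 0.77 (SE 0.14, adjusted p 0.0444), the prolyl 3-hydroxylase P3h3 at 1.75 (SE 0.28, adjusted p 0.0391), the prolyl 4-hydroxylase subunit P4ha2 at 0.76 (SE 0.12, adjusted p 0.0376) and the lysyl hydroxylase Plod3 at 0.59 (SE 0.10, adjusted p 0.0423). With that library they stood at 0.56, 1.31, 0.54 and 0.37. Over all 6 pathway lists the same 4 were the called genes of 72 tested without library 1, and 31.9% of the 72 had an unadjusted p under 0.05 against 33.3% of all genes, which is close to the background.

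Genes for export and crosslinking of the chains showed no call. All 8 export and chaperone genes were tested, 5 positive and 3 negative with a median of 0.06, and none had an unadjusted p under 0.05 in edgeR or a DESeq2 call. Sparc, a collagen-binding matrix protein, stood at 718 ± 37.5 and 887 ± 305 CPM, Mia2, a receptor for large cargo at the endoplasmic reticulum, at 184 ± 8.85 and 203 ± 28.5 CPM, and the coat protein gene Sec23a at 180 ± 23.2 and 180 ± 7.49 CPM. Of 7 crosslinking genes 6 were positive, with a median of 0.24 and 0 called by edgeR or DESeq2. Peroxidasin, Pxdn, which links the NC1 domains of neighbouring protomers, stood at 305 ± 7.44 and 296 ± 48.4 CPM. Loxl2, a lysyl oxidase that crosslinks type IV collagen, stood at 234 ± 21 and 271 ± 38.7 CPM, and the transglutaminase Tgm2 at 124 ± 14.1 and 125 ± 35.6 CPM. The 1 gene under an unadjusted p of 0.05 was Loxl3 at 0.68 (SE 0.22, adjusted p 0.465), named after its values were seen.

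Receptors and degrading enzymes likewise had no call by edgeR or DESeq2 and no unadjusted p under 0.05. Of 12 receptor genes 11 were tested, 4 positive and 7 negative with a median of -0.13. The integrin subunit Itgb1, common to the collagen-binding integrins, stood at 408 ± 37.3 and 397 ± 10.7 CPM, Itga3 at 231 ± 15.6 and 203 ± 19.2 CPM, and the collagen receptor kinase Ddr1 at 92.9 ± 6.35 and 141 ± 58.2 CPM. Of 12 genes for breakdown and its inhibitors 8 were tested, 4 positive and 4 negative with a median of -0.05. The membrane protease Mmp14 stood at 85.1 ± 1.36 and 110 ± 30.2 CPM, the metalloproteinase inhibitor Timp3 at 74 ± 11 and 61.9 ± 20.4 CPM, and Reck, a membrane-bound inhibitor, at 60.9 ± 1.77 and 46.7 ± 13 CPM.

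Among the other basement membrane genes, the laminin chains Lama1 and Lama3 were the ones that DESeq2 called, 2 of 21 lower where it called 0.767% of all genes lower. All 21 were tested, 9 positive and 12 negative with a median of -0.03. EdgeR called 0, and at an unadjusted p under 0.05 it counted 3 of 21 lower (3.54% of all genes were lower at this level) and 0 higher. Nidogen-2, Nid2, stood at 549 ± 28.8 and 534 ± 133 CPM, agrin, Agrn, at 498 ± 22.5 and 439 ± 86.4 CPM, and the laminin chain gene Lamc1 at 378 ± 49 and 379 ± 20 CPM. Lama1, the laminin alpha chain of early embryonic membranes, stood at 220, 229 and 186 CPM across WT against 131, 137 and 159 CPM in the DKO-labelled libraries. The log2 fold change came to -0.58 (SE 0.12). The adjusted p was 0.29 by edgeR and 0.00856 by DESeq2. Lama1 is also 1 of the 6 parietal endoderm markers, whose summed level overlapped between the groups. That sum holds Lama1 itself and is mostly Sparc, at 576 to 1190 CPM over the libraries. The part of parietal endoderm in the Lama1 value was not tested. Lama3, the alpha chain of laminin-332, stood at 2.41, 2.92 and 2.38 CPM across WT against 0.608, 1.42 and 0.742 CPM in the DKO-labelled libraries, which is -1.47 as log2 fold change (SE 0.37), and its adjusted p was 0.352 by edgeR and 0.0379 by DESeq2. The third was Col18a1, a basement membrane collagen with heparan sulfate chains, at -0.27 (SE 0.10, adjusted p 0.508 by edgeR). In each of these 3, named after their values were seen, all DKO-labelled libraries lay below all WT libraries, a pattern found in 7.61% of all genes (7.94% in the opposite direction).

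**Figure D4:**
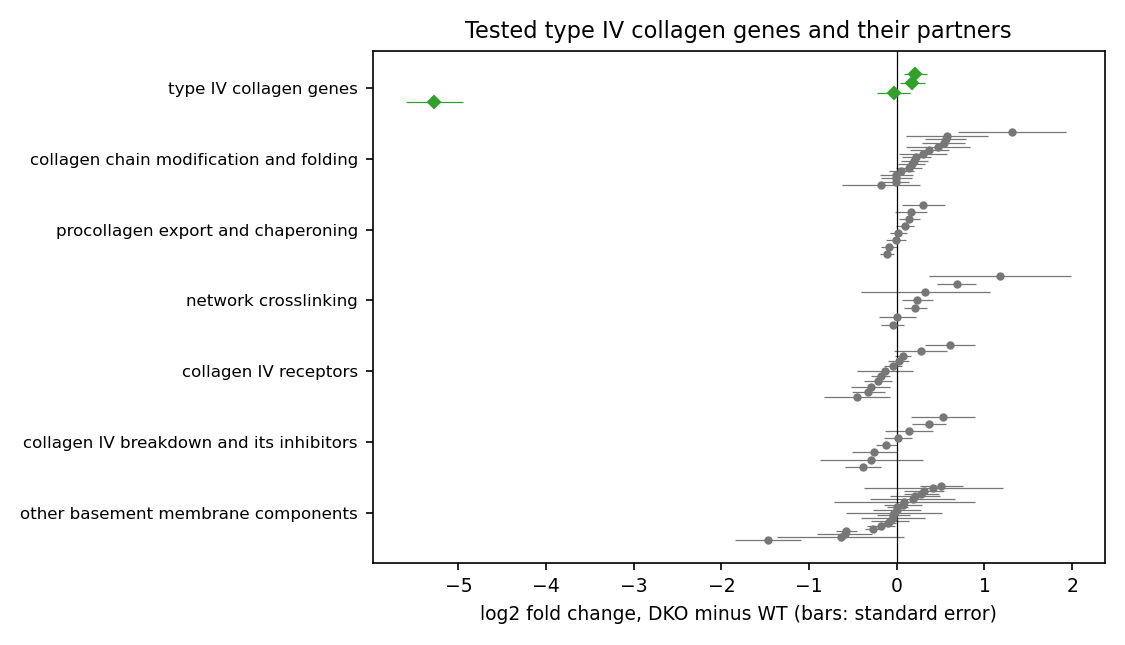
Log2 fold change, DKO-labelled libraries minus WT, with its standard error, of the 4 tested type IV collagen genes (diamonds) and of the 71 tested genes of the 6 partner lists (circles). Col4a6 lies at -5.27, while the partner genes run from -1.47 for Lama3 to 1.31 for P3h3.

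The profile of each gene over the 6 libraries was set beside those of 10626 other genes with a mean of at least 5 CPM, by Pearson correlation of log2 CPM. Col4a1 and Col4a2 correlated at 0.988, and Col4a2 ranked at place 36 for Col4a1. Those nearest to Col4a1 were Lgals3bp (0.998), Tmem109 (0.998), Sdr42e1 (0.996) and Ndufaf7 (0.994), and those nearest to Col4a2 included Tgfbi (0.996), Zfp473 (0.996) and Acbd5 (0.995). Col4a5 was nearest to Khnyn (0.999), Tbl2 (0.990), Sh3d19 (0.989) and Lgi2 (0.987), and its correlation with Col4a6 was 0.257. Col4a6 was nearest to Frmpd1 (0.996), Mrps14 (0.993), Cobll1 (0.992) and Trmt2b (0.989). The size of their differences was far from that of Col4a6: the log2 fold changes were -1.19, -0.35, -1.06 and -0.60 against -5.27. The correlation ranks shape and not size, and over 6 libraries that differ in depth and in marker levels such values are a description.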

How the data were processed

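Raw read counts per gene symbol were used as the authors deposited them. Per the labels' protocols, mRNA libraries from column-purified RNA were sequenced as single reads. The submitters' processing notes name mm10 as build, with SAMtools and DESeq2 as tools. Per the file headers the columns are subset BAM files, with no word on the subset. Aligner, counter, annotation and strandedness: not given in the sources used here. Hence reads from the genes Gm15418, Gm15419 and C430014B12Rik, on the strand opposite to Col4a1, Col4a2 and Col4a3, could not be told apart from theirs by strand. The overlaps are of whole gene spans, and overlap of exons was not checked. Pseudogenes also lie within the spans of Col4a5 (Gm15268 and Gm15282) and Col4a6 (Gm15077, Gm15078 and Gm15079). None of these genes has a row in the counts.

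Of 25239 genes, 0 rows lacked a name, 0 columns lacked a sample, and 14002 genes passed filterByExpr, 4 type IV collagen genes among them. The comparison used edgeR 4.0.16 under R 4.3.3 with its quasi-likelihood test (TMM scaling, robust shrinkage, group as the only term, Benjamini-Hochberg adjustment over genes tested, threshold 0.05). The test was run on simulated counts with an equal spread in both groups. That check does not cover libraries that differ from each other as the DKO-labelled ones do here. Standard errors were obtained by dividing the size of a log2 fold change by the root of its F value. Log2 CPM for correlations used a prior count of 2. Coding lengths came from GENCODE M21, in place of the RefSeq protein table planned, and promoters and neighbours from RefSeq (GRCm38.p6).

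The members, gene lists and tests were chosen with earlier results of these data known. Named partners are the 3 of each list with the highest mean CPM and any past the threshold, named markers the 2 highest, named neighbours the nearest tested on each side or any past the threshold, and like genes the 4 with the highest correlation. For Col4a2, 1 of these is not reported here. Alternatives were RLE scaling, library totals, other filters, DESeq2 1.42.0, a replicate block and leaving out each library.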

Additional observations from a re-analysis of the deposited data

How the results depend on the processing

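The number of genes called depended on single libraries and on the tool. The log2 fold changes of the type IV collagen genes moved less with scaling, filter and tool than when a library was left out. That of Col4a5 changed sign when some libraries were left out. EdgeR called 2 genes higher and 3 lower with all libraries. Higher calls were 1 with library totals and 1 with the replicate block, and lower calls were 5 without a filter and 0 with the replicate block. DESeq2 called 178 higher and 118 lower. Leaving out each library in turn gave 0 to 433 higher and 0 to 201 lower calls. The extremes came from leaving out WT library 2 (0 in all) and DKO-labelled library 1. Lower calls, and with them that of Col4a6, were 0 without any 1 WT library or without DKO-labelled library 2. Partner genes called were 0 higher and 0 lower, with 0 to 4 higher and 0 lower when each library was left out, the 4 without DKO-labelled library 1, and 2 lower by DESeq2. No neighbour was called by any of these fits. The cause of these shifts was not tested.

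Leaving out each library moved the log2 fold change of Col4a1 between 0.04 and 0.29, of Col4a2 between 0.09 and 0.32, of Col4a5 between -0.22 and 0.13 and of Col4a6 between -5.45 and -5.08. The difference of the log2 ratio lay between -0.0536 and -0.0273 for Col4a1 and Col4a2 and between 5.19 and 5.43 for Col4a5 and Col4a6. With exon union length, an alternative chosen after seeing the data, the order of levels was the same in both groups. Same-numbered libraries did not deviate together (correlations of deviations -0.457, -0.29 and -0.242). Deviations of 3 libraries a group cannot show whether equal numbers mark a shared litter or batch. The block is therefore not read as a paired test. With 3 libraries a group, and DKO-labelled library 3 holding 56732836 counts against 20040601 in the shallowest, the counts of Col4a3, Col4a4 and, in the DKO-labelled libraries, Col4a6 limit what can be told apart.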
